A study of Mus musculus with 12 samples.

Results

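The comparison described here is the response of mouse leg muscle to the loss of its nerve in animals that still have the histone variant H2A.Z. It rests on 6 of the 12 RNA sequencing libraries of the study, 3 from denervated and 3 from innervated tibialis anterior, and these were chosen by their labels alone, with no measured value. The study asked whether H2A.Z is needed for resting and for induced transcription in muscle fibres, and used nerve section to induce transcription. All mice were C57BL/6 and 7 weeks old. The animals called WT carried both H2A.Z genes as loxP-flanked alleles, H2A-Z.1 flox/flox and also H2A-Z.2 flox/flox, and had no HSA Cre transgene, so they were floxed mice without Cre and not unmodified wild types. The other 6 libraries came from mice called dKO (H2A-Z.1-/- and H2A-Z.2-/-, with HSA Cre+), in which the skeletal actin promoter drives Cre in muscle fibres. In every animal the left sciatic nerve was cut in the thigh under ketamine and xylazine, and tibialis anterior was frozen 48 h later. The muscle of the opposite leg, which had no operation, served as the innervated control. Surgery, side of the body and loss of the nerve therefore cannot be told apart, and no label ties a leg to its animal.

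A motor nerve sets much of the gene expression of the fibres it reaches. Electrical activity keeps the genes of the embryonic synapse silent, drives a metabolic and contractile program suited to the pattern of firing, and is read inside the fibre through calcium, histone deacetylases and transcription factors such as myogenin and MEF2. When the nerve is cut, the distal axon breaks down, the fibre stops firing, acetylcholine receptors spread over its surface, and within days protein breakdown by the proteasome and by autophagy outruns synthesis, so that the muscle wastes. Tibialis anterior in the mouse is made almost wholly of fast fibres.

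The 6 WT libraries held between 55668606 and 87753152 counts, and a count is a sequencing read assigned to a gene. Levels are given as CPM, counts scaled to one common library total with TMM factors, and 3 counts corresponded to 0.0342 to 0.0539 CPM, depending on the library. Differences are log2 fold changes of denervated over innervated with standard errors, by the quasi-likelihood test of edgeR, with p-values adjusted (Benjamini-Hochberg) over the 17201 genes with enough counts, which are 55.4% of the genes in the table. A gene is called when its adjusted p is under 0.05. From innervated to denervated muscle the mean level of the fast myosin Myh4 was 36515 to 28964 CPM. That of the slow myosin Myh7 was 3.52 to 4.42 CPM. The 6 dKO libraries shared in the scaling, in the choice of genes with enough counts and in the estimate of the spread between replicates, but their levels did not enter the WT contrast. WT denervated replicate 2 stood apart in the relation of its deviations to GC content (Spearman -0.562, against -0.078 to 0.365 in the other 5 WT libraries), and without it 3838 genes were higher and 3244 lower.

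Cutting the nerve changed the level of many genes in both directions, mostly by less than 2-fold. Of 17201 genes, 7576 were called (44%), with 3968 higher (23.1%) and 3608 lower (21%) in denervated muscle. A change of 2-fold or more was called in 2030 genes (11.8%), 981 of them higher (5.7%) and 1049 lower (6.1%). The median called rise was 0.605 and the median called decrease 0.675 on the log2 scale. Among the genes that rose, 38.3% did so by less than 0.5 and 36.9% by 0.5 to 1 on the log2 scale, and 127 genes rose by more than 3, that is over 8-fold. Among those that fell, 31.8% did so by less than 0.5 and 39.1% by 0.5 to 1, and 68 fell over 8-fold. Against a 2-fold limit built into the test itself (edgeR's glmTreat), 411 genes were higher (2.39%) and 387 lower (2.25%).

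A call requires groups that lie apart relative to the spread of the replicates, so overlap among called genes was rare by construction. The 3 denervated values did not overlap the 3 innervated values in 7305 of the 7576 called genes (96.4%) and in 51.5% of all genes tested. Of the 9625 genes that were not called, 6924 had a 95% interval that lay wholly within a 2-fold change, and 218 had an estimate of 2-fold or more that the spread between replicates did not separate from 0. For most uncalled genes a change of 2-fold or more was therefore outside the interval. No gene passed the adjusted threshold for a different response in dKO muscle (0%) by edgeR or by DESeq2, and 374 genes (2.17%) had an unadjusted p under 0.05 in edgeR.

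**Figure D1:**
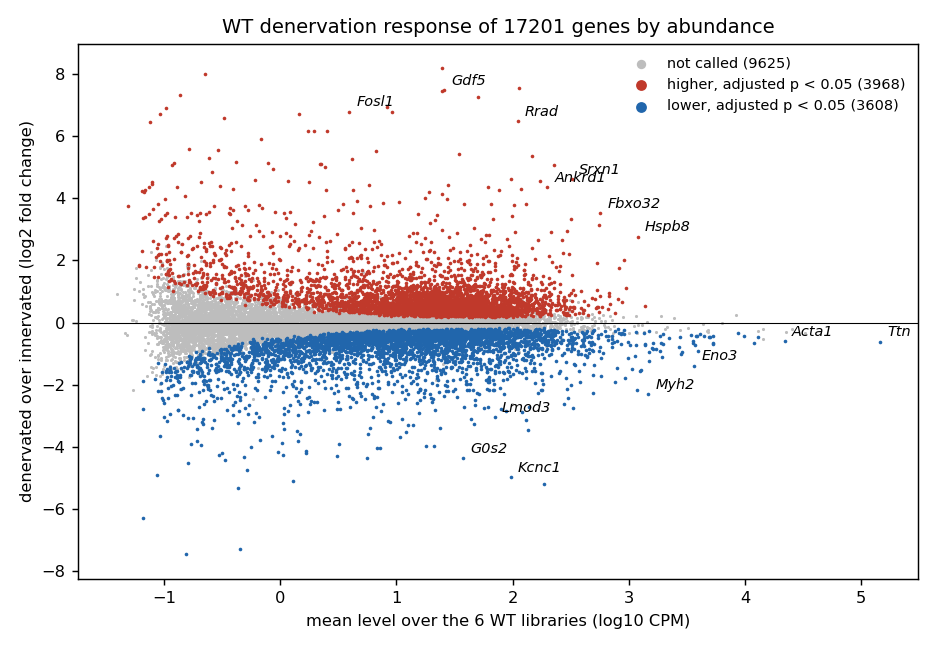
Each point is 1 of 17201 genes, placed by its mean level over the 6 WT libraries (log10 CPM) and its log2 fold change of denervated over innervated muscle, in red for the 3968 called higher, blue for the 3608 called lower and grey for the rest. Large changes occurred at all but the highest levels, and the points at the far right, Ttn and Acta1 among them, lie just below 0.

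The balance of rises and decreases differed with the CPM of a gene, a measure that grows with its length as well as with its transcripts. Of the 80 genes at 1000 CPM or more, 51 were lower and 2 were higher, and the 2 were Hspb8 and Eef2. The 1078 genes between 100 and 1000 CPM were split, with 338 higher and 387 lower. In the largest class, the 6693 genes between 10 and 100 CPM, rises outnumbered decreases by 2370 to 1504. Below that the order turned again, with 861 higher and 1165 lower between 1 and 10 CPM, and 397 higher and 501 lower under 1 CPM. These directions depend on the scaling. With counts scaled by library totals alone, 27 of the genes at 1000 CPM or more were lower and 4 higher. In the other classes the directions were counted with TMM scaling only. The share of genes called fell from 66.2% in the top class to 20% in the class under 1 CPM, where the median standard error of a log2 fold change was 0.376, against 0.101 between 100 and 1000 CPM. Genes with few counts were thus measured with less precision, and in that class a called change was mostly a large one, since 315 of the 397 rises and 358 of the 501 decreases were of 2-fold or more.

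**Figure D2:**
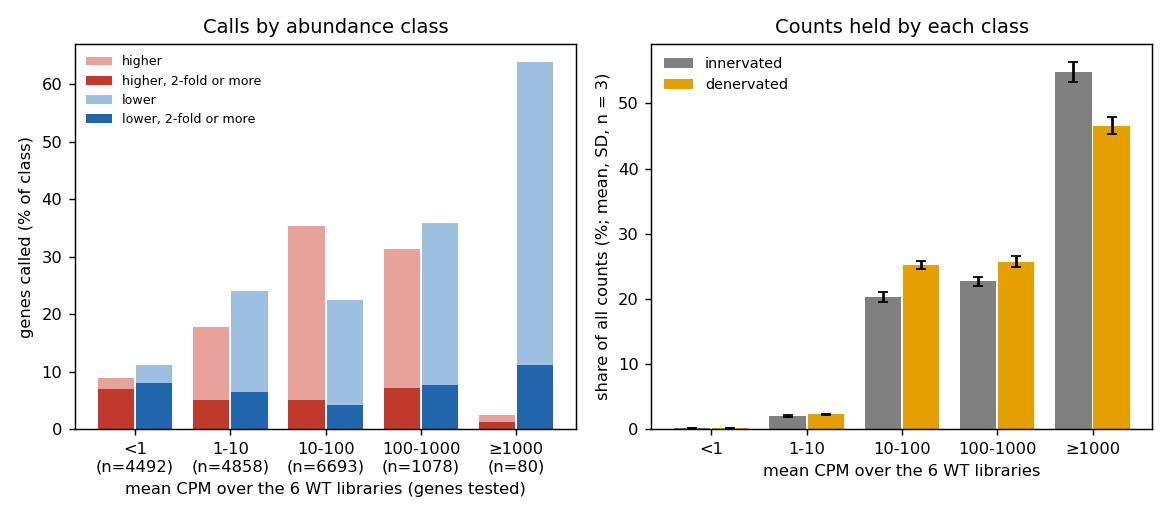
The left panel gives the percentage of genes called higher (red) and lower (blue) in each class of mean CPM, with changes of 2-fold or more in the darker shade, and the right panel the percentage of all counts that each class held in innervated and denervated muscle (mean, SD, n = 3). With TMM scaling 63.8% of genes in the top class were lower and 2.5% higher, and the share of counts of that class went from 54.8% to 46.6%.

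The genes at 1000 CPM or more held 54.8% ± 1.49 (SD, n = 3) of all counts in innervated muscle and 46.6% ± 1.36 in denervated muscle. The share of the class between 10 and 100 CPM went from 20.3% to 25.2%, and that of the class between 100 and 1000 CPM from 22.7% to 25.7%. The 10 genes with the most counts in innervated muscle held 34% ± 1.54 of its counts, and those in denervated muscle 28.7% ± 1.22. In all, 14.4% of counts sat in other genes after denervation, measured between the group means, with 13.9% to 15.8% in the 3 pairs by replicate number. By the same measure, pairs of innervated libraries differed from each other by 4.34% to 6.51%, and pairs of denervated libraries by 5.76% to 7.93%. The 10 genes with the largest losses made up 41.9% of all the loss, while the 10 with the largest gains made up 8.62% of all the gain, so the loss was concentrated in few genes and the gain was spread over many.

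That shift touches the scale on which each gene is read. TMM scaling set the median of all tested genes at 0, and scaling by library totals alone moved it to 0.24, with 6190 genes then higher and 1898 lower, or 76.5% of calls higher against 52.4%. Calls and log2 fold changes above and below are relative to the TMM scale unless library totals are named. Where with library totals a list's count in the direction of most of its calls moved by more than 1.5 times, or its median changed sign, that value is given beside it. CPM do not show the amount of RNA per muscle, and in a bulk sample fewer cells of a type and less RNA per cell cannot be told apart.

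Among called genes, many of the largest gains in CPM were in genes of protein quality control, protein breakdown and translation. Hspb8, a small heat-shock protein that hands misfolded proteins to autophagy, was at 319, 244 and 355 CPM in the innervated muscles and 2698, 1627 and 1921 CPM in the denervated muscles (log2 fold change 2.77 ± 0.19 (SE), adjusted p = 2.1e-07). Every denervated value lay several-fold above every innervated one. Sqstm1, the autophagy receptor p62, was at 422, 307 and 356 CPM in the innervated muscles and 1693, 1110.2 and 1537 CPM in the denervated muscles (log2 fold change 2.00 ± 0.16 (SE), adjusted p = 7.8e-07). The muscle ubiquitin ligases Fbxo32 (atrogin-1) and Trim63 (MuRF1), the best known markers of muscle wasting, went from 91.3 to 1046 CPM and from 113 to 1003 CPM, with log2 fold changes of 3.52 and 3.15. Mknk2, a kinase of the translation factor eIF4E, rose from 377 to 1284 CPM, and Eef2, the elongation factor that moves the ribosome along the message, from 1118 to 1630.2 CPM. Odc1, which makes putrescine at the head of polyamine synthesis, was at 62, 39.1 and 72.3 CPM in the innervated muscles and 678, 555 and 515 CPM in the denervated muscles (log2 fold change 3.33 ± 0.21 (SE), adjusted p = 1.16e-07). Igfbp5, a binding protein of insulin-like growth factors, rose from 223 to 841 CPM, and Srxn1, which repairs oxidised peroxiredoxins, from 25.5 to 622 CPM.

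Among called genes, with predicted genes, small RNAs and genes with a near-identical copy left out, the 10 largest losses in CPM were all in genes of contraction and of glycolysis. Ttn, the giant spring of the sarcomere, was at 179284, 162187 and 187754 CPM in the innervated muscles and 111229, 124591 and 109216 CPM in the denervated muscles (log2 fold change -0.62 ± 0.16 (SE), adjusted p = 0.0058). Acta1, skeletal actin, was at 26044, 21075 and 32044 CPM in the innervated muscles and 18612, 14716 and 18908 CPM in the denervated muscles (log2 fold change -0.60 ± 0.19 (SE), adjusted p = 0.0219), and its call was kept in 4 of the 6 fits that left out 1 WT library. The calcium pump Atp2a1 went from 14980.4 to 10792 CPM, tropomyosin Tpm1 from 11198 to 8378 CPM, the fast light chains Mylpf and Myl1 from 6516 to 4007 CPM and from 6553 to 4116 CPM, and the fast myosin Myh1 from 14517 to 9245 CPM. Tnnt3, fast troponin T, fell from 9732 to 7751 CPM (adjusted p = 0.0235), a call kept in 2 of the 6 fits. None of these fell by as much as 2-fold. The exception was Eno3, the muscle enolase, at 5543, 4483 and 5849.7 CPM in the innervated muscles and 1929, 1903 and 2198 CPM in the denervated muscles (log2 fold change -1.40 ± 0.14 (SE), adjusted p = 4.4e-06). All 3 denervated values lay far below the innervated ones.

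**Figure D3:**
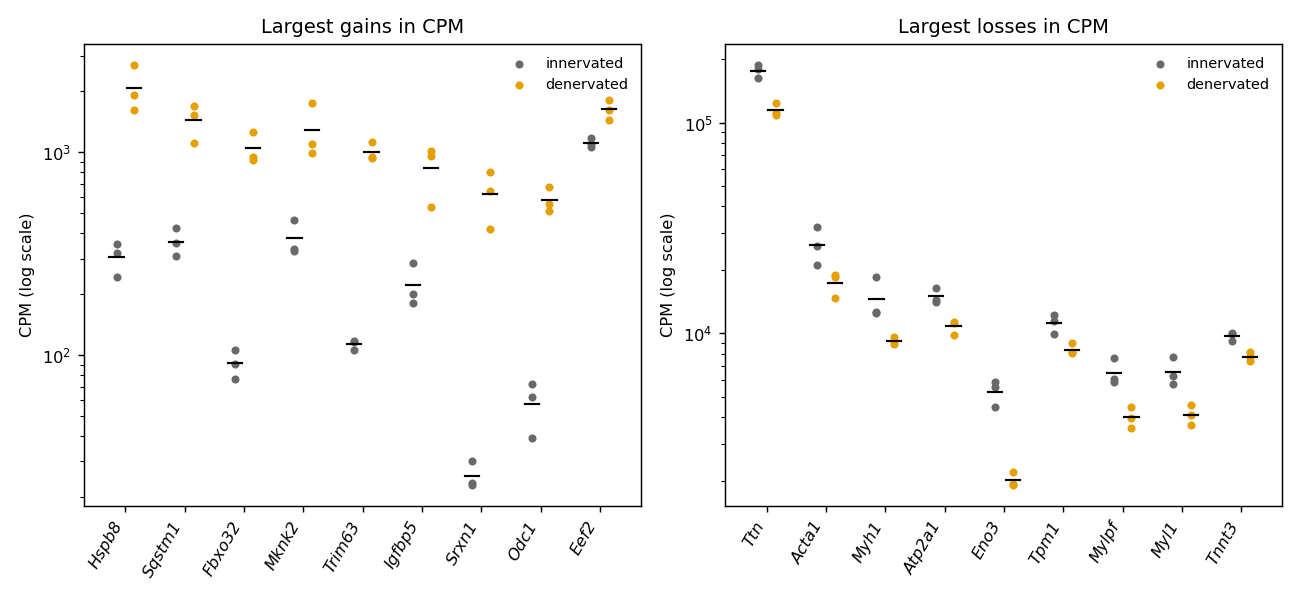
CPM in each library (log scale) for 9 of the 10 genes with the largest gain and 9 of the 10 with the largest loss in mean CPM among called genes, innervated in grey and denervated in orange, with the mean of 3 as a bar. The gains are wide on this scale, from 25.5 to 622 CPM for Srxn1, while most losses are narrow, from 176408 to 115012 CPM for Ttn.

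Among genes averaging 10 CPM or more, steep rises were seen in genes with no known place at the synapse. Plekhh1, a gene with a pleckstrin homology domain, was at 1.11, 1.06 and 2.51 CPM in the innervated muscles and 36.8, 71.1 and 96.1 CPM in the denervated muscles (log2 fold change 5.44 ± 0.41 (SE), adjusted p = 4.91e-07). Krt18, a keratin of simple epithelia, was at 0.268, 0.403 and 1.29 CPM in the innervated muscles and 108, 106 and 85.5 CPM in the denervated muscles (log2 fold change 7.27 ± 0.37 (SE), adjusted p = 1.91e-08). In both genes each denervated value was more than 10-fold above each innervated one. Ampd3, the AMP deaminase best known from erythrocytes, was at 10.9, 11.2 and 12 CPM in the innervated muscles and 203, 207 and 261 CPM in the denervated muscles (log2 fold change 4.30 ± 0.14 (SE), adjusted p = 6.06e-10). Ankrd1, a stretch-responsive partner of titin, was at 16.8, 14.1 and 24.8 CPM in the innervated muscles and 573, 356 and 207 CPM in the denervated muscles (log2 fold change 4.35 ± 0.49 (SE), adjusted p = 1.2e-05), with denervated values that differed from each other by more than 2-fold.

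The steepest decreases at this level included an ion channel, a Z-disc protein and cell surface proteins. Kcna7, a voltage-gated potassium channel of muscle, was at 282, 217 and 247 CPM in the innervated muscles and 25.4, 21.5 and 20.8 CPM in the denervated muscles (log2 fold change -3.46 ± 0.16 (SE), adjusted p = 7.07e-09). Ky, a Z-disc protein whose loss causes kyphoscoliosis in mice, was at 242, 211 and 247 CPM in the innervated muscles and 20, 31.4 and 27.4 CPM in the denervated muscles (log2 fold change -3.15 ± 0.28 (SE), adjusted p = 1.74e-06). Sema6c, a transmembrane semaphorin, was at 79.8, 79.5 and 92.3 CPM in the innervated muscles and 8.15, 7.93 and 9.88 CPM in the denervated muscles (log2 fold change -3.28 ± 0.15 (SE), adjusted p = 7.07e-09). In each of the 3, the groups lay far apart and the replicates close together. Itgb6, an integrin beta subunit, fell from 79.3 to 9.12 CPM, Klhl34, a kelch protein, from 25.2 to 2.57 CPM, and Vgll2, a muscle cofactor of TEAD factors, from 20.1 to 2.35 CPM. G0s2, an inhibitor of triglyceride lipase, fell from 71.7 to 3.51 CPM, but its 3 innervated values ran from 37.3 to 119 CPM.

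**Figure D4:**
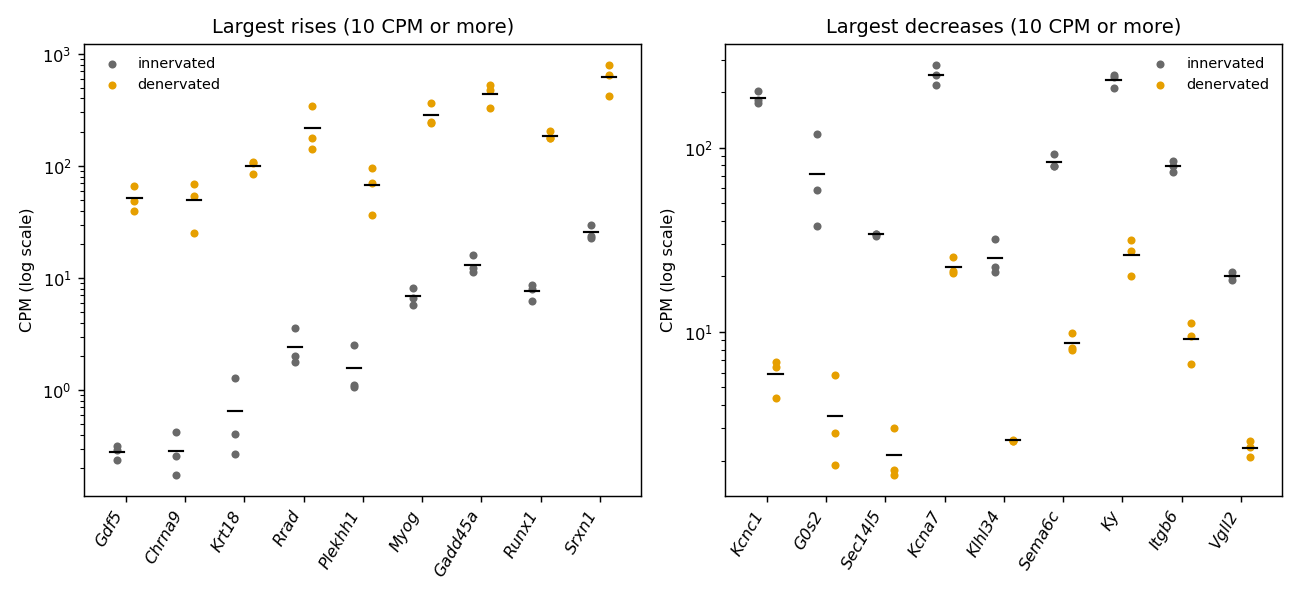
CPM in each library (log scale) for 9 of the 10 genes with the largest rises and 9 of the 10 with the largest decreases among genes past the threshold and averaging 10 CPM or more, innervated in grey and denervated in orange, with the mean of 3 as a bar. The groups do not overlap in any gene shown, which is part of how they were picked.

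A small set of genes went from near absence to clear expression. In 12 genes each innervated library was under 0.2 CPM and each denervated library at 1 CPM or more. Elf3, an ETS factor of epithelia, was at 0.187, 0.165 and 0.0786 CPM in the innervated muscles and 6.1, 4.07 and 3.95 CPM in the denervated muscles. Prrt3, a proline-rich membrane protein, was at 0.0669, 0.0183 and 0.0472 CPM in the innervated muscles and 3.14, 2.63 and 4.55 CPM in the denervated muscles. Ccl7, a chemokine that draws monocytes, was at 0.174, 0.0549 and 0.126 CPM in the innervated muscles and 4.66, 3.64 and 4.47 CPM in the denervated muscles. Fgf21, a hormone that muscle releases under metabolic stress, was at 0, 0.0183 and 0.11 CPM in the innervated muscles and 1.92, 1.08 and 1.54 CPM in the denervated muscles. Dusp9, a MAP kinase phosphatase, was at 0, 0.128 and 0.0472 CPM in the innervated muscles and 1.72, 1.16 and 2.2 CPM in the denervated muscles. In all 5 the innervated values rested on few reads, so the size of the fold is less certain than its direction. The reverse pattern was seen in 7 genes, among them Helt, a basic helix-loop-helix factor, at 1.62, 1.25 and 1.87 CPM in the innervated muscles and 0.0794, 0.105 and 0.185 CPM in the denervated muscles.

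**Figure D5:**
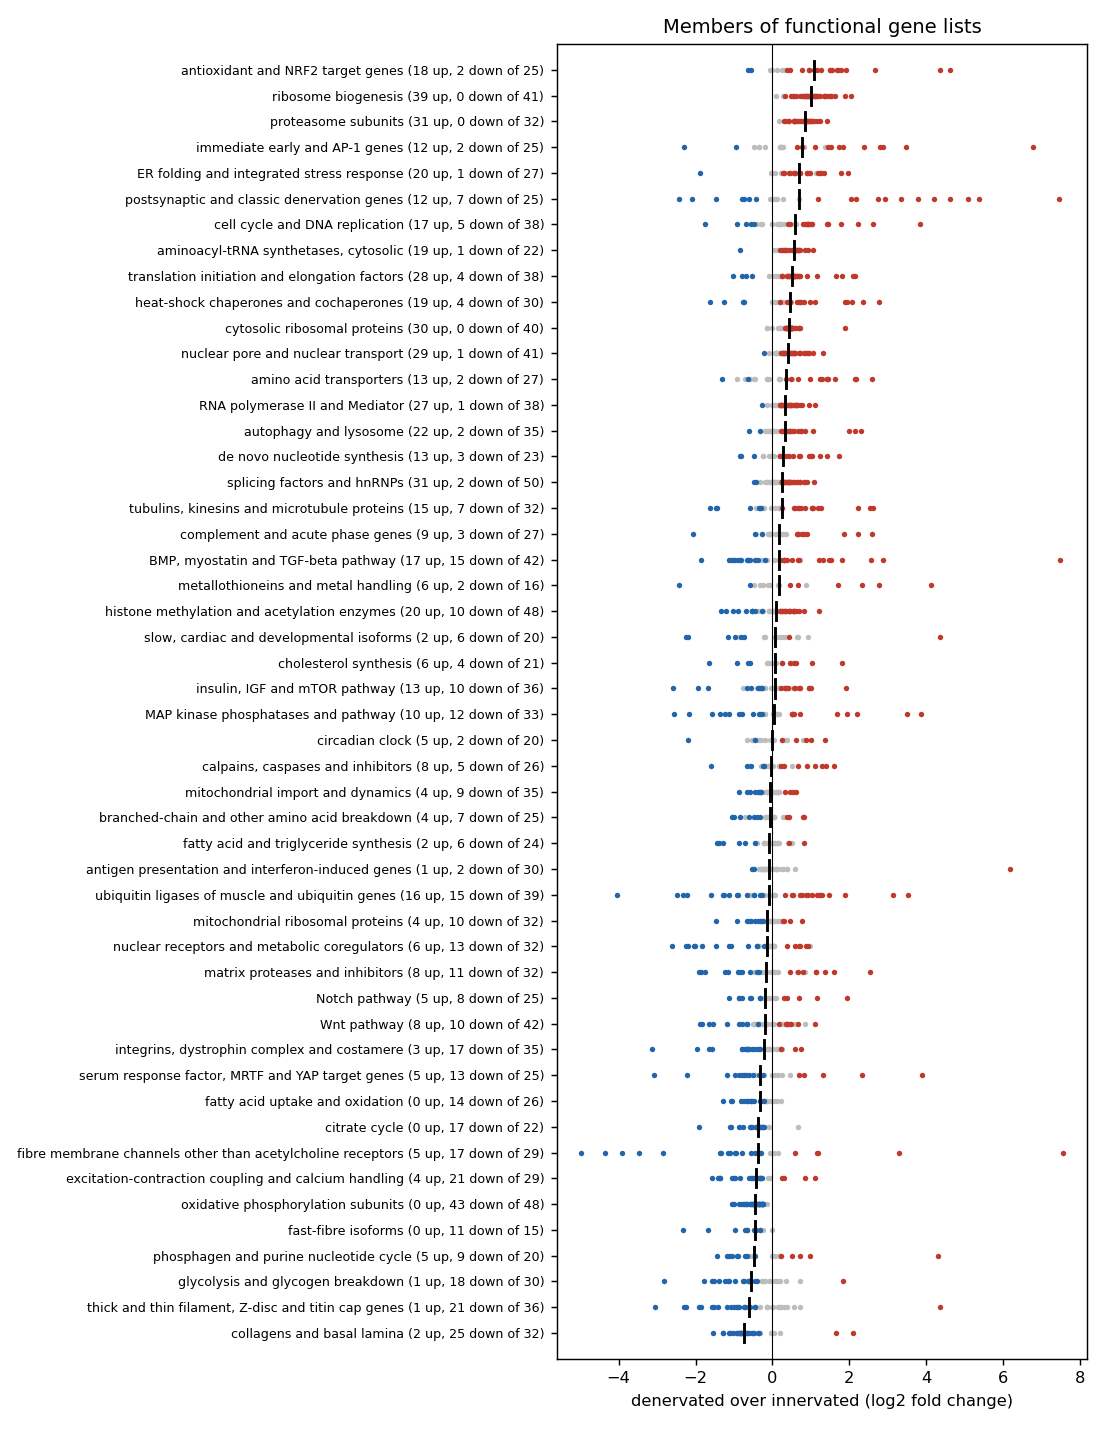
Each point is the log2 fold change of 1 member of a functional gene list, red when called higher, blue when called lower and grey when not called, with the median of the list as a black bar, and lists are ordered by their medians. Ribosome biogenesis and the proteasome lie wholly to the right of 0, and oxidative phosphorylation wholly to the left.

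The genes of the machinery that makes ribosomes rose almost as 1 block. Of 41 tested genes of ribosome biogenesis, 39 were higher and none lower, 22 of them 2-fold or more, and the median was 1.01 against 0 for all genes. Gnl3 (nucleostemin), a nucleolar GTPase, was at 14.3, 13.5 and 13.6 CPM in the innervated muscles and 66, 53 and 51.5 CPM in the denervated muscles (log2 fold change 2.04 ± 0.11 (SE), adjusted p = 2.91e-08). Nop58, a core protein of box C/D small nucleolar RNPs, was at 10.4, 9.3 and 9.65 CPM in the innervated muscles and 43.5, 32.5 and 32.2 CPM in the denervated muscles (log2 fold change 1.88 ± 0.13 (SE), adjusted p = 1.72e-07). Each denervated value was at least 3-fold above each innervated one in these 2 genes. Heatr1, which is needed for RNA polymerase I transcription, rose from 26.8 to 82.7 CPM, and Polr1b, the second largest subunit of that polymerase, from 16.8 to 46.8 CPM. Nhp2, of the box H/ACA particles, rose from 8.92 to 25.7 CPM, and the helicase Ddx21 from 51.1 to 146 CPM. Tcof1 and Noc4l were the 2 not called, at 0.10 and 0.27 on the log2 scale. Of 8 small nucleolar RNA host genes 6 were higher and none lower. Of 160 annotated small nucleolar RNAs tested, at a median level of 0.268 CPM, 42 were higher and 4 lower. That is 28.7% called, against 44% of all genes and 20% of the genes under 1 CPM.

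Ribosomal protein genes rose too, by less. Of 40 cytosolic ribosomal protein genes, 30 were higher and none lower, with a median of 0.42, and of all 83 matched by name 58 were higher and 1 lower, with a median of 0.39. The 1 rise of 2-fold or more was Rpl3, at 19.8, 23.7 and 20 CPM in the innervated muscles and 90.4, 78.6 and 66.8 CPM in the denervated muscles (log2 fold change 1.89 ± 0.12 (SE), adjusted p = 1.4e-07), a gene for a protein of the large subunit that most tissues make. The 1 that fell was Rpl3l, its paralogue in skeletal muscle and heart, from 330.0 to 141 CPM (log2 fold change -1.22 ± 0.13 (SE), adjusted p = 6.36e-06), named after its values were seen. Rps18 went from 43.5 to 70.1 CPM and Rpl5 from 51.4 to 83.6 CPM. Rps2, at 154 to 154 CPM, was among the 5 genes above 100 CPM whose interval lay closest around 0. Many ribosomal protein genes have processed pseudogenes of near-identical sequence, so reads may have been divided between copies.

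Translation factors and the enzymes that charge tRNAs moved the same way. Of 38 initiation and elongation factors 28 were higher and 4 lower (median 0.51), and of 22 cytosolic aminoacyl-tRNA synthetases and their partners 19 were higher and 1 lower (median 0.57). Eif4a1, the RNA helicase that unwinds the 5' end of messages, was at 45.4, 39.5 and 40.8 CPM in the innervated muscles and 204, 168 and 163 CPM in the denervated muscles (log2 fold change 2.09 ± 0.10 (SE), adjusted p = 7.12e-09). Eif4ebp1, the repressor that sequesters eIF4E until mTOR phosphorylates it, was at 24.3, 21.3 and 20.1 CPM in the innervated muscles and 120, 76.8 and 94.2 CPM in the denervated muscles (log2 fold change 2.15 ± 0.19 (SE), adjusted p = 1.41e-06). The groups lay clearly apart in both, and Eif4e itself went the other way, from 65.3 to 40.7 CPM. Eif1a rose from 9.72 to 33.9 CPM and Eif6, which keeps the large ribosomal subunit apart from the small, from 22 to 69.6 CPM. Eef1a2, the elongation factor form of mature muscle, fell from 911 to 529 CPM, while Eef1a1, the form of most other tissues, rose from 249 to 405 CPM. Lars, for leucine, had the steepest rise of the synthetases, from 60.2 to 126 CPM, and Aimp2, a scaffold of the synthetase complex, was the 1 that fell, from 124 to 69.6 CPM.

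Mitochondrial ribosomal proteins were called about as often as all genes. Of 32, 4 were higher and 10 lower (43.8% called against 44%, median -0.14), and with library totals 10 were higher and 5 lower, with a median of 0.1. Without WT innervated replicate 2, 2 were higher. Mrpl34 fell from 25.5 to 9.22 CPM and Mrpl12 from 79.1 to 41.6 CPM, while Mrps18b rose from 23.4 to 40.2 CPM. Of 35 genes of mitochondrial import and dynamics 4 were higher and 9 lower (37.1% called, median -0.05), and with library totals 10 and 3 (median 0.19). Mfn2, which fuses outer membranes, was at 604, 572 and 590 CPM in the innervated muscles and 328, 331 and 309 CPM in the denervated muscles (log2 fold change -0.87 ± 0.09 (SE), adjusted p = 5.86e-06), with no overlap between groups.

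Upstream of translation, many genes of the apparatus for making and exporting RNA also rose. Of 41 genes of the nuclear pore and of nuclear transport 29 were higher and 1 lower (median 0.40). Of 38 genes of RNA polymerase II, its general factors and Mediator 27 were higher and 1 lower (median 0.34), and of 50 splicing factors and hnRNPs 31 were higher and 2 lower (median 0.26). Nup62, of the central channel of the pore, was at 22.9, 22.6 and 18.4 CPM in the innervated muscles and 58.1, 47.6 and 53.5 CPM in the denervated muscles (log2 fold change 1.32 ± 0.10 (SE), adjusted p = 5.6e-07). Srsf7, an SR splicing factor, rose from 20.7 to 44 CPM, and Supt5h, an elongation factor of polymerase II, from 63.4 to 107 CPM. The 2 splicing genes that fell were Mbnl1, from 518 to 385 CPM, and Rbfox2, from 102 to 72.5 CPM, both regulators of muscle splicing. Of 35 DEAD-box helicases 24 were higher and 1 lower.

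Genes that modify histones moved in both directions. Of 48 methylation and acetylation enzymes 20 were higher and 10 lower, and with library totals 27 and 6. Smyd1, a muscle methyltransferase that also binds myosin, was at 503, 431 and 507 CPM in the innervated muscles and 187, 196 and 191 CPM in the denervated muscles (log2 fold change -1.33 ± 0.10 (SE), adjusted p = 5.8e-07). Prmt1, the main arginine methyltransferase of most cells, was at 37.4, 38.4 and 37.5 CPM in the innervated muscles and 89.5, 91.9 and 80.3 CPM in the denervated muscles (log2 fold change 1.21 ± 0.10 (SE), adjusted p = 7.13e-07). Hdac5, a class II deacetylase that binds MEF2, fell from 72.8 to 31.4 CPM, and Sirt3, the mitochondrial deacetylase, from 23.6 to 11.5 CPM. Neither H2A.Z gene was called in WT muscle. H2afz, which encodes H2A.Z.1, was at 13.9, 10.9 and 15.6 CPM in the innervated muscles and 11.2, 7.54 and 10.4 CPM in the denervated muscles (log2 fold change -0.47 ± 0.19 (SE), adjusted p = 0.0539), with overlapping groups, and with replicate number as a block its adjusted p was 0.00656. H2afv, which encodes H2A.Z.2, was at 24, 23.9 and 18.5 CPM in the innervated muscles and 21.6, 21.6 and 18.9 CPM in the denervated muscles (log2 fold change -0.10 ± 0.11 (SE), adjusted p = 0.534). In the 6 dKO libraries H2afz lay between 5.826 and 9.933 CPM and H2afv between 4.778 and 6.059 CPM.

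The genes of the proteasome rose almost as a whole. Of 32 subunits 31 were higher and none lower (median 0.85), and the 1 not called was Psme4, an activator that caps the particle, from 527 to 589 CPM. Psma5, of the outer ring of the core, was at 25.2, 19.6 and 20.8 CPM in the innervated muscles and 68.2, 53.8 and 53.6 CPM in the denervated muscles (log2 fold change 1.42 ± 0.11 (SE), adjusted p = 5.98e-07). Psmd8, of the lid, was at 145, 102 and 121 CPM in the innervated muscles and 356, 265 and 246 CPM in the denervated muscles (log2 fold change 1.23 ± 0.16 (SE), adjusted p = 4.3e-05). The receptor Psmd4 and the deubiquitinase Psmd14 rose from 104 to 220 CPM and from 38.1 to 85.3 CPM. Psmb10, which replaces a standard subunit in the immunoproteasome and stands in another list, fell from 10 to 7.01 CPM.

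Ubiquitin ligases were split. Of 39 muscle ligases and ubiquitin genes 16 were higher and 15 lower, with 9 and 8 of them 2-fold or more (median -0.1, and 0.14 with library totals). Fbxo32 was at 91.1, 106 and 76.4 CPM in the innervated muscles and 953, 1264 and 922 CPM in the denervated muscles (log2 fold change 3.52 ± 0.33 (SE), adjusted p = 2.8e-06), and Trim63 at 106, 116 and 118 CPM in the innervated muscles and 939, 1122 and 947 CPM in the denervated muscles (log2 fold change 3.15 ± 0.25 (SE), adjusted p = 7.04e-07). Every denervated value of the 2 genes lay far above every innervated one. Fbxo30, a ligase subunit of the muscle wasting program, rose from 28.4 to 78.6 CPM and Klhl38 from 18.4 to 67.8 CPM. The ankyrin and SOCS box adaptors went mostly down, with 3 higher and 9 lower of 16 tested, and Asb12 was at 26.9, 25.2 and 29.8 CPM in the innervated muscles and 4.67, 5.34 and 4.62 CPM in the denervated muscles (log2 fold change -2.48 ± 0.16 (SE), adjusted p = 9.38e-08). Asb5 was among the risers, from 107 to 250 CPM. Of 61 F-box genes 21 were higher and 8 lower, which at 47.5% is near the background of 44%, and of 47 ubiquitin-specific proteases 22 were higher and 5 lower (57.4%).

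Autophagy genes mostly rose. Of 35 autophagy and lysosome genes 22 were higher and 2 lower (median 0.32), with 4 rises of 2-fold or more. Gabarapl1, which is attached to the autophagosome membrane, was at 30.2, 24.3 and 24.8 CPM in the innervated muscles and 146, 108 and 140 CPM in the denervated muscles (log2 fold change 2.31 ± 0.15 (SE), adjusted p = 1.18e-07). Ctsl, a lysosomal cysteine protease, was at 78.4, 76 and 73 CPM in the innervated muscles and 338, 305 and 362 CPM in the denervated muscles (log2 fold change 2.15 ± 0.10 (SE), adjusted p = 8.86e-09). The groups did not come near each other in either gene. The cargo receptor Nbr1 rose from 122 to 254 CPM, while the lysosomal membrane genes Lamp1 and Lamp2 were uncalled (log2 fold changes 0.01 and 0.02). Tfeb, the factor that drives lysosomal genes, fell from 62.1 to 41.1 CPM. Capn3, the muscle calpain, was at 169, 159 and 184 CPM in the innervated muscles and 53.3, 59.7 and 56.3 CPM in the denervated muscles (log2 fold change -1.60 ± 0.10 (SE), adjusted p = 8.1e-08). Of 26 calpain, caspase and inhibitor genes 8 were higher and 5 lower (median -0.03, and 0.21 with library totals), or 50% called against 44% of all genes. Without WT denervated replicate 3, 5 of these were higher, and without WT denervated replicate 1, 2 were lower, as with library totals.

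Genes of the defence against oxidants had the highest median of all lists, 1.09, with 18 higher and 2 lower of 25, and 13 rises of 2-fold or more. Srxn1 was at 30, 22.9 and 23.6 CPM in the innervated muscles and 804, 420 and 643 CPM in the denervated muscles (log2 fold change 4.61 ± 0.24 (SE), adjusted p = 1.91e-08). Txnrd1, the cytosolic thioredoxin reductase, was at 82.8, 67.7 and 68.5 CPM in the innervated muscles and 504, 353 and 536 CPM in the denervated muscles (log2 fold change 2.67 ± 0.17 (SE), adjusted p = 1.18e-07). Hmox1, haem oxygenase, was at 4.72, 6.08 and 6.32 CPM in the innervated muscles and 76.2, 23 and 254 CPM in the denervated muscles (log2 fold change 4.37 ± 0.83 (SE), adjusted p = 0.000847), with denervated values more than 10-fold apart but all above the innervated ones. Nqo1, a quinone reductase, rose from 11.9 to 45.4 CPM, and both subunits of the enzyme that starts glutathione synthesis rose, Gclc from 12.8 to 36.3 CPM and Gclm from 12.4 to 42.8 CPM. Nfe2l2, which encodes NRF2, the factor that drives these genes in many tissues, rose from 33.3 to 108 CPM, and its repressor Keap1 was not called (log2 fold change 0.13). The decreases were the mitochondrial and the extracellular superoxide dismutase, Sod2 from 322 to 219 CPM and Sod3 from 5.54 to 3.58 CPM.

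The antioxidant response element to which NRF2 binds is held in the core letters TGACNNNGC, and these were sought on both strands in RefSeq promoters (GRCm38.p6, 250 bases before to 50 bases after the first listed start), after the rise of the list had been seen. The core was present in 6 of the 19 promoters of this list (31.6%) and in 14.8% of the 12204 promoters of all tested genes with one, and it can overlap an AP-1 site. It was in 16.4% of the promoters of 2-fold higher genes and 13% of those of 2-fold lower genes. Proteasome genes had it in 19.2% of promoters and ribosome biogenesis genes in 8.57%. None of these shares had a test. The 250 bases before the start are shown for the promoters of 2 of the genes that rose, because they hold the core, with the match on either strand in capitals, written 5' to 3' on the strand of the gene. Gclm lies on the plus strand at chr3:122245307-122245556 and G6pdx, which makes NADPH in the pentose phosphate path, on the minus strand at chrX:74428881-74429130.
Gclm: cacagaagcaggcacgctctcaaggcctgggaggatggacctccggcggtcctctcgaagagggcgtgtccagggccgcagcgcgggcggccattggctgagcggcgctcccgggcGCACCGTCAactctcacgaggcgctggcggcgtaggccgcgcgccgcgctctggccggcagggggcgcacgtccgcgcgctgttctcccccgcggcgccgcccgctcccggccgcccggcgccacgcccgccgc
G6pdx: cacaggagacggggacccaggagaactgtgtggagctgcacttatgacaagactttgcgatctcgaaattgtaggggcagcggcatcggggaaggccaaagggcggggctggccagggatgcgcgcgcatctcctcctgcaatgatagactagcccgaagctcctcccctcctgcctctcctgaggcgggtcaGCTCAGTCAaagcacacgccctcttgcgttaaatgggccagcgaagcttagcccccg
The matches begin 134 bases before the start of Gclm and 57 before that of G6pdx, whose levels went from 12.4 to 42.8 CPM and from 4.35 to 12.4 CPM. A match in letters is not a measured binding site.

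A few genes of metal handling changed by large amounts. Mt2, a metallothionein, was at 1.81, 3.22 and 2.97 CPM in the innervated muscles and 30, 27.2 and 82.3 CPM in the denervated muscles (log2 fold change 4.13 ± 0.53 (SE), adjusted p = 3.97e-05), and Mt1 rose from 7.28 to 49.5 CPM. In Mt2 the highest denervated value was well above the other 2. Slc39a14, a zinc and iron importer, was at 20.2, 23.7 and 25 CPM in the innervated muscles and 112, 107 and 126 CPM in the denervated muscles (log2 fold change 2.33 ± 0.12 (SE), adjusted p = 1.87e-08). The ferritin light chain Ftl1 rose from 48 to 158 CPM. Tfrc, the transferrin receptor that brings iron into the cell, went the other way, at 447, 370 and 688 CPM in the innervated muscles and 59.4, 85.8 and 132 CPM in the denervated muscles (log2 fold change -2.44 ± 0.41 (SE), adjusted p = 0.000345). In all 6 of 16 such genes were higher and 2 lower, or 50% called against 44% of all genes.

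Chaperone genes of the cytosol and of the endoplasmic reticulum mostly rose. Of 30 heat-shock chaperones and cochaperones 19 were higher and 4 lower (median 0.45). Hspb1 was at 93.7, 68.8 and 111 CPM in the innervated muscles and 497, 256 and 296 CPM in the denervated muscles (log2 fold change 1.94 ± 0.26 (SE), adjusted p = 5.17e-05), and Hsp90aa1, the inducible HSP90, rose from 29.6 to 111 CPM. The chaperonin subunits Cct2 and Cct3 rose from 91.3 to 181 CPM and from 77.7 to 166 CPM. The inducible Hspa1a and Hspa1b, near-identical copies whose reads cannot be kept apart, were high in 1 denervated library, with Hspa1b at 14.5 CPM in replicate 1 and at 1.2 and 2.58 CPM in the others, and each was called in 2 of the 6 fits that left out a library. The 4 that fell were Hspb6, Hspb3, Hspb2 and Dnajb5, the first of them from 269 to 88 CPM. Small heat-shock proteins therefore went in opposite directions.

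Of 27 genes of folding in the endoplasmic reticulum and of the integrated stress response 20 were higher and 1 lower (median 0.69). Xbp1, a transcription factor of the unfolded protein response, was at 56.4, 41.4 and 45.9 CPM in the innervated muscles and 179, 160 and 159 CPM in the denervated muscles (log2 fold change 1.79 ± 0.12 (SE), adjusted p = 1.29e-07). Ppp1r15a (GADD34), which leads phosphatase 1 to eIF2 alpha, was at 15.7, 12.3 and 12.8 CPM in the innervated muscles and 59.5, 50.9 and 51.1 CPM in the denervated muscles (log2 fold change 1.98 ± 0.15 (SE), adjusted p = 6.03e-07). The groups were well apart in both. Hspa5 (BiP), the main chaperone of the compartment, rose from 138 to 273 CPM, and Atf4, the central factor of the integrated response, from 109 to 205 CPM. Ddit3 (CHOP), which ATF4 can induce and which favours cell death, was the 1 that fell, at 21.7, 14 and 11.9 CPM in the innervated muscles and 5.83, 3.46 and 3.73 CPM in the denervated muscles (log2 fold change -1.88 ± 0.26 (SE), adjusted p = 7.02e-05).

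Many genes of amino acid uptake and nucleotide synthesis rose with them. Of 27 amino acid transporters 13 were higher and 2 lower, or 55.6% called against 44% of all genes. Of the rises 9 were 2-fold or more. Slc6a9, a glycine transporter, was at 5.63, 5.62 and 5.69 CPM in the innervated muscles and 35.2, 34 and 32.6 CPM in the denervated muscles (log2 fold change 2.59 ± 0.08 (SE), adjusted p = 4e-10). Slc43a2, which carries branched-chain and aromatic amino acids, was at 27.3, 27.5 and 27.3 CPM in the innervated muscles and 119, 94.5 and 151 CPM in the denervated muscles (log2 fold change 2.15 ± 0.18 (SE), adjusted p = 1.11e-06). Replicates were nearly equal in innervated muscle and far higher after denervation in each of these. Both subunits of the LAT1 transporter rose, Slc7a5 from 1.79 to 8.07 CPM and Slc3a2 from 22.8 to 44.7 CPM, and Slc7a11, which imports cystine for glutathione, rose from 4.06 to 11 CPM. Slc7a2, a carrier of arginine, fell from 134 to 53.7 CPM. Of 23 genes of nucleotide synthesis 13 were higher and 3 lower (median 0.28). Ctps, which makes CTP, was at 17, 15 and 18 CPM in the innervated muscles and 64.1, 54.8 and 48.3 CPM in the denervated muscles (log2 fold change 1.74 ± 0.11 (SE), adjusted p = 1.32e-07), and the IMP dehydrogenases Impdh1 and Impdh2, which lead to GTP, rose from 15.1 to 30.6 CPM and from 18.5 to 37.3 CPM.

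Nuclear genes of energy metabolism mostly fell at each stage, from glycolysis to the respiratory chain. Of 48 nuclear-encoded subunits of oxidative phosphorylation 43 were lower and none higher, with a median of -0.45 and 2 decreases of 2-fold or more. With library totals 16 were lower and none higher, with a median of -0.21, so the direction held and the count did not. Ndufb10, of complex I, was at 186, 173 and 169 CPM in the innervated muscles and 92.2, 78.7 and 86.9 CPM in the denervated muscles (log2 fold change -1.04 ± 0.10 (SE), adjusted p = 4.27e-06). Sdhd, the membrane anchor of complex II, was at 265, 230 and 225 CPM in the innervated muscles and 118, 127 and 112 CPM in the denervated muscles (log2 fold change -1.01 ± 0.10 (SE), adjusted p = 3.85e-06). Cycs, cytochrome c, was at 200, 163 and 189 CPM in the innervated muscles and 93.7, 109 and 100 CPM in the denervated muscles (log2 fold change -0.87 ± 0.09 (SE), adjusted p = 9.87e-06). No denervated value reached the lowest innervated one in any of the 3. Among those not called, Ndufa2, Atp5b, Ndufv1 and Ndufa4 also had negative estimates, of -0.33, -0.25, -0.24 and -0.22. Of 42 complex I subunits matched by name 35 were lower and none higher. Mitochondrially encoded subunits were less clear. Among those with the most CPM per kb of exon, mt-Nd1 and mt-Cytb were lower (log2 fold change -0.47 each). The subunits mt-Co1, mt-Co2, mt-Co3 and mt-Nd3 were uncalled, at -0.22, -0.32, -0.2 and -0.32.

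Genes of the citrate cycle and of fat oxidation showed the same direction. Of 22 genes of the cycle and of pyruvate entry 17 were lower and none higher (median -0.38), and 9 were lower with library totals (median -0.15). Pdp1, the phosphatase that switches pyruvate dehydrogenase on, was at 109, 89 and 90 CPM in the innervated muscles and 23.2, 27.2 and 26.7 CPM in the denervated muscles (log2 fold change -1.90 ± 0.12 (SE), adjusted p = 7.63e-08). Idh3a, of isocitrate dehydrogenase, fell from 602 to 278 CPM. Of 26 genes of fat uptake and oxidation 14 were lower and none higher (median -0.33), with 8 lower and 3 higher by library totals (median -0.09). Lpl, the lipase that frees fatty acids in the capillary bed, was at 449, 453 and 325 CPM in the innervated muscles and 171, 194 and 139 CPM in the denervated muscles (log2 fold change -1.28 ± 0.18 (SE), adjusted p = 9.83e-05). Cpt1b, the muscle gate of fatty acid entry into mitochondria, went from 21.3 to 10.1 CPM, and a second annotated gene of near-identical sequence shares its exons. Cpt2 and the trifunctional protein genes Hadha and Hadhb were uncalled (log2 fold changes -0.03, -0.06 and 0.04).

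Glycolysis genes fell more steeply but less evenly. Of 30 genes of glycolysis and glycogen breakdown 18 were lower and 1 higher (median -0.56), with 8 decreases of 2-fold or more. Pgam2, the muscle phosphoglycerate mutase, was at 1460.0, 1231 and 1646 CPM in the innervated muscles and 397, 399 and 466 CPM in the denervated muscles (log2 fold change -1.78 ± 0.12 (SE), adjusted p = 2.39e-07). Pfkfb1, which makes the activator fructose 2,6-bisphosphate, was at 40.4, 36.9 and 35.9 CPM in the innervated muscles and 4.3, 5.24 and 6.34 CPM in the denervated muscles (log2 fold change -2.83 ± 0.12 (SE), adjusted p = 4.69e-09). In both genes the 2 groups lay far apart. Triose phosphate isomerase Tpi1 fell from 1904 to 657 CPM and lactate dehydrogenase Ldha from 2086 to 881 CPM. Aldoa and Hk2 were uncalled (log2 fold changes -0.28 and 0.06). The insulin-responsive glucose transporter Slc2a4 (GLUT4) was at 645, 498 and 515 CPM in the innervated muscles and 195, 200 and 168 CPM in the denervated muscles (log2 fold change -1.56 ± 0.13 (SE), adjusted p = 8.2e-07), and the basal transporter Slc2a1 (GLUT1), the 1 member that rose, at 6.85, 5.99 and 6.22 CPM in the innervated muscles and 25.1, 13.6 and 30.2 CPM in the denervated muscles (log2 fold change 1.85 ± 0.24 (SE), adjusted p = 3.97e-05). The 2 transporters thus went in opposite directions.

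The 2 AMP deaminases also went in opposite directions. Ampd1, the muscle form, was at 733, 777 and 890 CPM in the innervated muscles and 286, 445 and 357 CPM in the denervated muscles (log2 fold change -1.14 ± 0.13 (SE), adjusted p = 1.89e-05), while Ampd3 rose as given above. Among the other 18 genes of the phosphagen and purine cycle, Gmpr, which returns GMP to IMP, fell from 142 to 52.5 CPM, and adenosine kinase Adk from 65.1 to 28.6 CPM. Muscle creatine kinase Ckm was not called, from 16815 to 11663 CPM, an estimate of -0.53. In all 5 members were higher and 9 lower, and 8 and 8 with library totals.

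Several regulators of oxidative metabolism fell steeply. Of 32 nuclear receptors and metabolic coregulators 13 were lower and 6 higher, and each of the 9 changes of 2-fold or more was a decrease. The list's median was -0.15, and 0.09 with library totals, when 9 were lower and 8 higher. Ppargc1a (PGC-1 alpha), which drives mitochondrial genes, was at 49.6, 51.9 and 48.8 CPM in the innervated muscles and 8.8, 12 and 11.9 CPM in the denervated muscles (log2 fold change -2.20 ± 0.12 (SE), adjusted p = 2.63e-08). Ppargc1b was at 23.1, 26.5 and 28.3 CPM in the innervated muscles and 4.47, 3.07 and 5.32 CPM in the denervated muscles (log2 fold change -2.60 ± 0.25 (SE), adjusted p = 2.94e-06). Their partners among the oestrogen-related receptors fell as well, Esrrg from 25.1 to 5.33 CPM, Esrra from 105 to 29.5 CPM and Esrrb from 4.59 to 1.67 CPM, and Ppara, the receptor for fatty acids, from 17.9 to 4.35 CPM. In none of these 6 genes did the groups overlap. Rora and Nrip1 rose, from 148 to 282 CPM and 53.9 to 86.8 CPM.

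The promoters of genes that fell were searched for the letters of a MEF2 site. The motif, CTA and TAG with 4 bases of any kind between them, reads the same on both strands and was in 6.13% of the 718 promoters of genes lower by 2-fold or more, in 2.96% of the 675 of genes higher by 2-fold or more and in 3.15% of all 12204. Many of these matches have G or C in the centre, where MEF2 is known to bind A and T. With only A or T there, a form tried after the values were seen, 2.65% of the promoters of 2-fold lower genes held it (19 genes), 0.889% of those of 2-fold higher genes (6 genes) and 0.516% of all (63 genes). The bases before the start are shown for 4 genes that fell, from a metabolic receptor to a chloride channel, because each holds 1 match with such a centre, in capitals. Esrrg lies on the plus strand at chr1:187608756-187609005, Synpo2l, a Z-disc protein, on the minus strand at chr14:20668355-20668604, Myoz2, a Z-disc partner of calcineurin, on the minus strand at chr3:123034988-123035237 and Clcn1, the chloride channel of the fibre surface, on the plus strand at chr6:42286435-42286684.
Esrrg: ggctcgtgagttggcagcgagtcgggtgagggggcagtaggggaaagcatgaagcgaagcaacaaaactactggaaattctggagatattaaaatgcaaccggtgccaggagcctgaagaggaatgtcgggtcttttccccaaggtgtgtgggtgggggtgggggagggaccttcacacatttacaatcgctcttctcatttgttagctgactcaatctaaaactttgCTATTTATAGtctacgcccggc
Synpo2l: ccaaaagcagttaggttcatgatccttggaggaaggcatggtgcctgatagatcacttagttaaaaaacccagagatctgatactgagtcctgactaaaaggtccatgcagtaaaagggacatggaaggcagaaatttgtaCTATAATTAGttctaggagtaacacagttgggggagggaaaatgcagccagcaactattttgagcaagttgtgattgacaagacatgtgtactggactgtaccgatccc
Myoz2: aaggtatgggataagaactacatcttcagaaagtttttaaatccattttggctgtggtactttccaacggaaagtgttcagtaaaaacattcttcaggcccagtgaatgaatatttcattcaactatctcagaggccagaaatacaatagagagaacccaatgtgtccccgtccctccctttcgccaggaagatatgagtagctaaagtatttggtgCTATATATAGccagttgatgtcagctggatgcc
Clcn1: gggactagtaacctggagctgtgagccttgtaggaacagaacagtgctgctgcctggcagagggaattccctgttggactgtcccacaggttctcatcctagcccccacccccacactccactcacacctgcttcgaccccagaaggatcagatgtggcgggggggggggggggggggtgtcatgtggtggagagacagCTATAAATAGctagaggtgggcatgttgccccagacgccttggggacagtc
The matches begin 22, 109, 33 and 51 bases before the start, in that order. Myoz2 fell from 92.3 to 40.4 CPM and Clcn1 from 203 to 95 CPM. The other motifs sought on both strands differed less: the E-box CAGCTG was in 18.1% of the promoters of 2-fold higher genes, 18.2% of those of 2-fold lower genes and 15.9% of all, the AP-1 site TGANTCA in 6.67%, 5.29% and 5.44%, and the FOXO core GTAAACA in 2.37%, 2.37% and 2.55%. These shares are counts of letters and had no test. A match is not a measured binding site, and one with an A or T centre can overlap the letters of a TATA box, as TATAAA in Clcn1.

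Genes of the contractile apparatus fell in most of its parts, with a few steep changes among many small ones. Of 36 genes of the thick and thin filaments, Z-disc and titin cap 21 were lower and 1 higher (median -0.61), 10 of them 2-fold or more, and with library totals 18 and 5. Lmod3, a leiomodin that lengthens thin filaments, was at 117, 117 and 141 CPM in the innervated muscles and 13.7, 16.2 and 15.3 CPM in the denervated muscles (log2 fold change -3.05 ± 0.12 (SE), adjusted p = 1.92e-09). Csrp3, muscle LIM protein, was at 215, 81.7 and 123 CPM in the innervated muscles and 32.6, 27.1 and 26 CPM in the denervated muscles (log2 fold change -2.29 ± 0.28 (SE), adjusted p = 2.91e-05). The denervated values of Lmod3 lay within 3 CPM of each other, while the innervated values of Csrp3 spread from 81.7 to 215 CPM. Among genes of the Z-disc, Myot (myotilin) fell from 1210.0 to 320 CPM, Ldb3 from 1861 to 625 CPM and Actn2, an alpha-actinin, from 1569 to 550 CPM. Actn3, the alpha-actinin of fast fibres, was uncalled (log2 fold change -0.01), and so was Neb, nebulin (-0.31). Actc1, cardiac actin, was at 200, 409 and 1853 CPM in the innervated muscles and 89.9, 125 and 300 CPM in the denervated muscles, and its call (adjusted p = 0.0203) was kept in 3 of the 6 fits that left out a library.

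Genes of fast fibres fell without a called rise of the slow or developmental myosins. Of 15 fast-fibre genes 11 were lower and none higher (median -0.45), with 6 lower by library totals. The steepest was Myh2, the myosin of type IIa fibres, at 2841, 3235 and 1302 CPM in the innervated muscles and 586, 575 and 321 CPM in the denervated muscles (log2 fold change -2.32 ± 0.37 (SE), adjusted p = 0.000218). Mylk2, which phosphorylates the myosin light chain, was at 798, 694 and 756 CPM in the innervated muscles and 251, 220 and 233 CPM in the denervated muscles (log2 fold change -1.68 ± 0.17 (SE), adjusted p = 4.74e-06). Myh4 was not called (log2 fold change -0.33 ± 0.18 (SE), adjusted p = 0.154). Of 20 slow, cardiac and developmental genes 2 were higher and 6 lower, or 40% called against 44% of all genes. The slow myosin Myh7 went from 3.52 to 4.42 CPM, the embryonic myosin Myh3 from 17.4 to 20.9 CPM and the perinatal myosin Myh8 from 15.7 to 13.9 CPM, none of them called. The number higher in this list was 1 to 3 when 1 library was left out, lowest without WT innervated replicate 1, and 5 with replicate number as a block. The 2 that rose were Ankrd1 and the slow calcium pump Atp2a2, from 59.6 to 79.5 CPM, and Casq2, cardiac calsequestrin, was at 69.9, 68.4 and 68.5 CPM in the innervated muscles and 14.5, 14.9 and 16 CPM in the denervated muscles (log2 fold change -2.19 ± 0.16 (SE), adjusted p = 4.42e-07).

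Genes that couple excitation to contraction fell with few exceptions. Of 29, 21 were lower and 4 higher (median -0.42), and with library totals 12 were lower and 4 higher. Jph2, which holds the transverse tubule against the reticulum, was at 686, 652 and 821 CPM in the innervated muscles and 299, 235 and 297 CPM in the denervated muscles (log2 fold change -1.38 ± 0.14 (SE), adjusted p = 4.99e-06). Camk2a, a calcium-dependent kinase, was at 162, 186 and 235 CPM in the innervated muscles and 48, 69.5 and 78.4 CPM in the denervated muscles (log2 fold change -1.57 ± 0.18 (SE), adjusted p = 1.68e-05). The groups did not overlap in either. Hrc, a calcium-binding protein of the reticulum, fell from 493 to 192 CPM, and the release channel Ryr1 and the voltage sensor Cacna1s by less, from 6032 to 4514 CPM and from 1261 to 1025 CPM. Without WT innervated replicate 1, 2 were higher. Those that rose in the full data included Calm3, Ppp3ca and Cacng1, the last from 103 to 186 CPM.

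Channels and pumps of the fibre surface gave some of the steepest decreases in the data. Of 29 such genes 17 were lower and 5 higher, 9 of the decreases being 2-fold or more. Atp1b1, a beta subunit of the sodium pump, fell from 153 to 21.4 CPM. Kcnn2 and Kcnn3, calcium-activated potassium channels of small conductance, went in opposite directions, Kcnn2 at 5, 6.48 and 6.76 CPM in the innervated muscles and 0.318, 0.378 and 0.506 CPM in the denervated muscles (log2 fold change -3.92 ± 0.25 (SE), adjusted p = 1.18e-07) and Kcnn3 at 3.93, 4.12 and 3.93 CPM in the innervated muscles and 47, 33.2 and 37.9 CPM in the denervated muscles (log2 fold change 3.30 ± 0.13 (SE), adjusted p = 1.92e-09). The values of each gene kept the 2 groups wide apart. The inward rectifier Kcnj2 fell from 103 to 40.2 CPM and the accessory subunit Scn4b from 594 to 237 CPM, while the adult sodium channel Scn4a was uncalled (log2 fold change 0.05). Of 64 potassium channel genes 5 were higher and 22 lower, or 42.2% called against 44% of all genes.

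Many genes of the extracellular matrix fell. Of 32 collagen and basal lamina genes 25 were lower and 2 higher, with a median of -0.75, the lowest of the functional lists. Col15a1, a collagen of muscle and capillary basement membranes, was at 111, 135 and 164 CPM in the innervated muscles and 43, 42.8 and 53.9 CPM in the denervated muscles (log2 fold change -1.55 ± 0.20 (SE), adjusted p = 4.65e-05). The main chains of the fibre basal lamina fell together, Col4a1 from 716 to 418 CPM, Lamc1 from 231 to 127 CPM and perlecan, Hspg2, from 639 to 338 CPM. Col1a1, of fibrillar collagen I, was at 1879, 3016 and 3003 CPM in the innervated muscles and 1172, 723 and 1729 CPM in the denervated muscles (log2 fold change -1.12 ± 0.34 (SE), adjusted p = 0.0156), with denervated values more than 2-fold apart, and its call was kept in 3 of the 6 fits that left out a library. The risers were Col19a1 and Col25a1, from 2.75 to 8.68 CPM and from 0.962 to 4.14 CPM, of which Col25a1 is made by muscle and needed for its innervation in the embryo. Of 35 Adam and Adamts genes 1 was higher and 15 lower, or 45.7% called against 44% of all genes. Of 32 matrix proteases and inhibitors 8 were higher and 11 lower (59.4%). With 1 library left out 5 to 9 of these 32 were higher, lowest without WT innervated replicate 1. With library totals 9 were higher and 9 lower, with a median of 0.07 against -0.16. Serpine2, an inhibitor of thrombin and plasmin, was at 101, 101 and 93.2 CPM in the innervated muscles and 25, 28.6 and 25.5 CPM in the denervated muscles (log2 fold change -1.90 ± 0.12 (SE), adjusted p = 8.49e-08).

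Genes of the links from matrix to cytoskeleton followed. Of 35 genes of integrins, the dystrophin complex and the costamere 17 were lower and 3 higher, and with library totals 12 and 9, when the median went from -0.22 to 0.02. Itgb6 was at 84.8, 73.4 and 79.8 CPM in the innervated muscles and 6.69, 11.2 and 9.46 CPM in the denervated muscles (log2 fold change -3.12 ± 0.17 (SE), adjusted p = 2.83e-08). Sgcd, delta-sarcoglycan, was at 66, 60.5 and 63.6 CPM in the innervated muscles and 15.7, 18.3 and 14.5 CPM in the denervated muscles (log2 fold change -1.97 ± 0.12 (SE), adjusted p = 6.71e-08), and alpha-dystrobrevin, Dtna, fell from 140 to 46.8 CPM. Dystrophin itself, Dmd, fell less, from 544 to 430 CPM, and utrophin, Utrn, was uncalled (log2 fold change -0.07).

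Most of the tubulin genes that changed rose. Of 15 tubulin genes 9 were higher and 3 lower, and of a wider list of 32 tubulins, kinesins and microtubule proteins 15 were higher and 7 lower, with 20 and 4 by library totals. Tubb6, a beta-tubulin, was at 14.4, 11.5 and 26.2 CPM in the innervated muscles and 91.7, 62.6 and 88.7 CPM in the denervated muscles (log2 fold change 2.22 ± 0.26 (SE), adjusted p = 1.82e-05). Tubb3, best known from neurons, was at 0.321, 0.403 and 0.377 CPM in the innervated muscles and 2.58, 1.43 and 2.74 CPM in the denervated muscles (log2 fold change 2.62 ± 0.25 (SE), adjusted p = 3.16e-06). Tuba8, an alpha-tubulin of muscle and brain, fell from 126 to 41 CPM, and the motor Kif1b from 1169 to 422 CPM, while the motor Kif5b rose from 215 to 448 CPM.

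Signalling genes changed in both directions. In the BMP, myostatin and TGF-beta pathways 17 of 42 genes were higher and 15 lower, and with library totals 22 and 9. Tgfbr1, a type I receptor, was at 45.7, 44 and 44.9 CPM in the innervated muscles and 154, 179 and 144 CPM in the denervated muscles (log2 fold change 1.82 ± 0.10 (SE), adjusted p = 2.82e-08), and Smad3, the mediator below it, rose from 166 to 478 CPM. Acvr2b, the type II receptor of myostatin, was at 11.1, 10.2 and 11.1 CPM in the innervated muscles and 3.02, 2.47 and 3.4 CPM in the denervated muscles (log2 fold change -1.87 ± 0.17 (SE), adjusted p = 2.6e-06), and Mstn, myostatin, rose from 24 to 55.7 CPM. Id2, a BMP target that blocks E-box factors, was at 3.24, 4.47 and 2.99 CPM in the innervated muscles and 34.3, 20.3 and 24.5 CPM in the denervated muscles (log2 fold change 2.89 ± 0.29 (SE), adjusted p = 5.44e-06). The BMP inhibitor Nog fell from 1.77 to 0.808 CPM and Smad6, another, from 9.06 to 4.3 CPM.

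In the insulin, IGF and mTOR pathway 13 of 36 genes were higher and 10 lower, with 19 and 4 by library totals and 15 and 15 with replicate number as a block. Irs1, the main docking protein of the insulin receptor, was at 270, 226 and 242 CPM in the innervated muscles and 70.3, 61.8 and 60.8 CPM in the denervated muscles (log2 fold change -1.94 ± 0.13 (SE), adjusted p = 2.2e-07), and Irs2 rose from 16.9 to 32.6 CPM. Grb14, an adaptor that inhibits the receptor, was at 17.3, 16.2 and 19.3 CPM in the innervated muscles and 2.54, 2.94 and 3.31 CPM in the denervated muscles (log2 fold change -2.58 ± 0.18 (SE), adjusted p = 1.88e-07). In both genes the groups lay far apart. Akt2 rose from 170 to 339 CPM, Foxo1 from 13.8 to 26.6 CPM and Igf1r from 23.1 to 38.1 CPM, and Igf1 fell from 55.3 to 37.5 CPM.

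Immediate early genes changed in part. Of 25, 12 were higher and 2 lower (median 0.78). Atf3, a stress factor of the ATF family, was at 4.35, 2.47 and 4.26 CPM in the innervated muscles and 60.8, 29.7 and 33.3 CPM in the denervated muscles (log2 fold change 3.47 ± 0.33 (SE), adjusted p = 3.12e-06). Myc was at 2.48, 2.47 and 4.84 CPM in the innervated muscles and 23.9, 17.1 and 26.8 CPM in the denervated muscles (log2 fold change 2.79 ± 0.23 (SE), adjusted p = 9.33e-07). Junb was at 7.2, 7.12 and 9.71 CPM in the innervated muscles and 78.6, 24.3 and 74.3 CPM in the denervated muscles (log2 fold change 2.88 ± 0.44 (SE), adjusted p = 0.00015), with the second denervated library well below the other 2. Jun rose from 48.8 to 175 CPM, while Fos was uncalled, from 5.66 to 6.47 CPM. Nr4a1, an activity-induced nuclear receptor, fell from 84.7 to 17.4 CPM. Of the MAP kinase phosphatases and pathway genes 10 of 33 were higher and 12 lower, with 17 higher by library totals. Dusp5, which acts on nuclear ERK, was at 0.937, 0.952 and 1.07 CPM in the innervated muscles and 18.1, 12.8 and 12.3 CPM in the denervated muscles (log2 fold change 3.87 ± 0.22 (SE), adjusted p = 3.76e-08), and Dusp4 rose from 2.53 to 28.4 CPM. Dusp10, which acts on p38 and JNK, fell from 74.2 to 16.5 CPM, and Map2k6, which activates p38, was at 30.6, 33.9 and 40.1 CPM in the innervated muscles and 3.73, 5.17 and 8.64 CPM in the denervated muscles (log2 fold change -2.57 ± 0.29 (SE), adjusted p = 1.19e-05).

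Targets and cofactors of SRF and YAP mostly fell. Of 25, 5 were higher and 13 lower, and with library totals 9 and 9. Fhl2, a LIM protein that is low in adult skeletal muscle, was at 1.34, 1.36 and 1.3 CPM in the innervated muscles and 26.3, 20 and 13 CPM in the denervated muscles (log2 fold change 3.89 ± 0.27 (SE), adjusted p = 2.17e-07). Tead4, a TEAD factor of myoblasts, was at 5.62, 6.81 and 6.96 CPM in the innervated muscles and 28.7, 36.9 and 32.4 CPM in the denervated muscles (log2 fold change 2.34 ± 0.16 (SE), adjusted p = 1.86e-07), while Tead1 fell from 105 to 60.2 CPM. Mkl1, a coactivator of SRF, fell from 43.9 to 9.42 CPM. In the Wnt pathway 8 of 42 were higher and 10 lower, which at 42.9% is near the background, and the receptor Fzd7 was at 48.9, 33.8 and 47.3 CPM in the innervated muscles and 13.3, 9.29 and 12.5 CPM in the denervated muscles (log2 fold change -1.89 ± 0.19 (SE), adjusted p = 5.58e-06). In the Notch pathway 5 of 25 were higher and 8 lower, or 52% called against 44% of all genes. The ligand Dll1 was at 7.2, 9.01 and 8.46 CPM in the innervated muscles and 47.3, 26.3 and 21 CPM in the denervated muscles (log2 fold change 1.94 ± 0.30 (SE), adjusted p = 0.000188). With library totals the Wnt list had 11 higher and 6 lower and the Notch list 6 and 5, with medians of 0.04 and 0.05 against -0.2 and -0.18. Without WT innervated replicate 2, 5 Notch genes were lower.

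Cell cycle genes showed both an arrest gene and replication genes going up. Of 38 genes 17 were higher and 5 lower (median 0.59), and with library totals 23 and 3. Cdkn1a, the p21 inhibitor of cyclin-dependent kinases, was at 2.94, 6.67 and 5.56 CPM in the innervated muscles and 55.3, 76.8 and 82.2 CPM in the denervated muscles (log2 fold change 3.83 ± 0.29 (SE), adjusted p = 5.3e-07). Cdt1, which licenses replication origins, was at 0.629, 0.806 and 0.817 CPM in the innervated muscles and 5.91, 3.86 and 4.19 CPM in the denervated muscles (log2 fold change 2.63 ± 0.28 (SE), adjusted p = 6.9e-06). Mki67, a marker of cycling cells, rose from 2.24 to 4.56 CPM. Of 20 clock genes 5 were higher and 2 lower, or 35% called against 44% of all genes, and 9 and 7 with replicate number as a block. With library totals 7 were higher and 1 lower, with a median of 0.25 against -0.01. Without WT innervated replicate 3, 3 clock genes were higher. Clock, a subunit of the activator at the centre of the loop, was at 50.6, 62.1 and 53.4 CPM in the innervated muscles and 95.5, 127 and 109 CPM in the denervated muscles (log2 fold change 1.00 ± 0.12 (SE), adjusted p = 2.69e-05), and Bhlhe41, a repressor in the loop, fell from 45.7 to 9.99 CPM.

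In a list of 25 postsynaptic and classic denervation genes, not all of them genes of the synapse, 12 were higher, each by 2-fold or more, and 7 were lower. Myog, myogenin, was at 5.79, 6.67 and 8.13 CPM in the innervated muscles and 361, 243 and 249 CPM in the denervated muscles, and Chrna1, the alpha subunit of the muscle acetylcholine receptor, at 10.7, 10.3 and 15.7 CPM in the innervated muscles and 100, 143 and 129 CPM in the denervated muscles. Chrng, the gamma subunit of the fetal receptor, was at 0.0669, 0.0183 and 1.56 CPM in the innervated muscles and 3.61, 2.05 and 5.55 CPM in the denervated muscles (log2 fold change 2.76 ± 0.94 (SE), adjusted p = 0.0286), a call kept in 3 of the 6 fits that left out a library. The third innervated library alone carried most of its counts in that group. Myf6, a myogenic factor of adult fibres, rose from 61.6 to 253 CPM. Of the 7 that fell, Ache, the acetylcholinesterase of the synapse, went from 33.2 to 6.18 CPM, Hdac9, a class II deacetylase, from 11.3 to 2.63 CPM and Dach2, a corepressor of the myogenin gene, from 4.91 to 1.79 CPM, each by 2-fold or more. Chrne, the epsilon subunit of the adult receptor, fell from 7.82 to 4.53 CPM, Etv5, an ETS factor of the synapse, from 14.2 to 8.48 CPM, Sema3a from 4.16 to 2.71 CPM and Colq, which anchors acetylcholinesterase, from 3.28 to 2.44 CPM. Rapsn, Lrp4 and Dok7, of the machinery that anchors and clusters the receptor, were uncalled (log2 fold changes 0.10, 0.13 and 0.68).

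The E-box CAGCTG, to which myogenin and its relatives bind, was in 7 of the 17 promoters found for this list (41.2%), against 15.9% of all promoters. The 7 were not all of genes that rose, since Chrne, Hdac9 and Etv5 fell. The bases before the start are shown for 3 of the genes that rose, with the E-boxes in capitals. Chrna1 lies on the minus strand at chr2:73580339-73580588, Chrng on the plus strand at chr1:87205561-87205810 and Musk, the receptor kinase that gathers acetylcholine receptors, on the plus strand at chr4:58285712-58285961.
Chrna1: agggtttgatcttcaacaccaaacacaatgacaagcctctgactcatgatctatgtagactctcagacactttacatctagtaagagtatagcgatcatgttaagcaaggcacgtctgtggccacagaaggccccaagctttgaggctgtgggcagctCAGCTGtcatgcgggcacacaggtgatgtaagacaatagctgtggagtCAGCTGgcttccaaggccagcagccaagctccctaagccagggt
Chrng: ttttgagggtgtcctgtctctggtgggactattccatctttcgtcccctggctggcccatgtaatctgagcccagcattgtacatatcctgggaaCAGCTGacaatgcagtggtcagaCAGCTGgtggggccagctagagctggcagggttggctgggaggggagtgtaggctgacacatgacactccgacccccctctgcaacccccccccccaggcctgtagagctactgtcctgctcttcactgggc
Musk: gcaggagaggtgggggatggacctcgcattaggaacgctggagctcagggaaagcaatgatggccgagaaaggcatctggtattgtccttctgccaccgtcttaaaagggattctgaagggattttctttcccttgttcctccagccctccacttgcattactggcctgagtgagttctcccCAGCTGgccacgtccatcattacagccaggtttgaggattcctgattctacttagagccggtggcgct
Chrna1 and Chrng hold 2 matches each and Musk 1. Musk rose from 13.8 to 192 CPM.

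Markers of the other cells in the muscle moved as follows, and their part in the results above was not tested. Schwann cell markers changed in both directions, with 4 higher and 7 lower of 13 tested. Prx, a gene of peripheral myelin, fell from 10.8 to 2 CPM. Ngfr, the low-affinity neurotrophin receptor that Schwann cells make after injury, was at 1.3, 1.59 and 1.48 CPM in the innervated muscles and 13.6, 8.23 and 12.4 CPM in the denervated muscles (log2 fold change 2.97 ± 0.18 (SE), adjusted p = 8.03e-08), and Sox10, which marks the lineage, was uncalled (log2 fold change 0.18). The summed level of the Schwann cell markers was 88.4 to 96.2 CPM in the innervated and 47 to 56.6 CPM in the denervated muscles.

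Vessel and connective tissue markers were lower. Of 12 endothelial markers 8 were lower and none higher, and the count was 2 with library totals and 5 to 8 when 1 library was left out, lowest without WT innervated replicate 2 or 3 or WT denervated replicate 1. Kdr, the main VEGF receptor, was at 137, 140 and 115 CPM in the innervated muscles and 61.7, 72 and 55.1 CPM in the denervated muscles (log2 fold change -1.05 ± 0.11 (SE), adjusted p = 5.18e-06), while Pecam1 was uncalled (log2 fold change -0.06). The summed endothelial level was 835 to 908 CPM in the innervated and 630 to 712 CPM in the denervated muscles. Of 10 smooth muscle and pericyte markers 7 were lower, and their sum was 1517 to 1533 CPM in the innervated and 1032 to 1162 CPM in the denervated muscles. Of 12 fibroblast markers 7 were lower (4 with library totals), 3 of them collagens counted above, and their sum was 6099 to 8606 CPM in the innervated and 3544 to 5641 CPM in the denervated muscles. Pdgfra and Dcn were uncalled (log2 fold changes 0.10 and 0.01).

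Few blood and immune markers were called. Of 14 macrophage markers 4 were higher and 1 lower, or 35.7% called against 44% of all genes. Without WT innervated replicate 2, 1 was higher, and with library totals 7 were higher. The summed macrophage level was 167 to 192 CPM in the innervated and 184 to 225 CPM in the denervated muscles. Cd68, a lysosomal protein of macrophages, was at 2.34, 3.88 and 3.14 CPM in the innervated muscles and 11.8, 11.9 and 13.9 CPM in the denervated muscles (log2 fold change 2.01 ± 0.20 (SE), adjusted p = 4.6e-06), but Csf1r and Emr1 (F4/80) were uncalled (log2 fold changes -0.14 and 0.07). Of 12 neutrophil markers 6 had too few counts to test and S100a8 alone was called (2 genes with library totals), and of 12 lymphocyte markers 5 could not be tested and Gzma alone was called. The summed neutrophil level was 5.34 to 18.4 CPM in the innervated and 24.3 to 30.7 CPM in the denervated muscles, and the summed lymphocyte level 1.53 to 2.18 CPM in the innervated and 1.52 to 2.25 CPM in the denervated muscles. None of 8 red cell markers was called, with a sum of 116 to 146 CPM in the innervated and 91.4 to 114 CPM in the denervated muscles, and 1 of 10 adipocyte markers was, Fabp4 (none with library totals, median 0.22 against -0.03), with a sum of 1216 to 1674 CPM in the innervated and 1237 to 1639.8 CPM in the denervated muscles. Of 12 satellite cell markers 4 were higher and 3 lower, or 58.3% called against 44% of all genes. Without WT innervated replicate 2, 1 satellite cell marker was lower, and with library totals 5 were higher and 1 lower. Their sum was 259 to 281 CPM in the innervated and 320 to 399 CPM in the denervated muscles. Pax7 was uncalled (log2 fold change -0.30), and Sdc4, a syndecan of the satellite cell surface and of other cells, was at 35.7, 37.4 and 35.2 CPM in the innervated muscles and 187, 176 and 123 CPM in the denervated muscles (log2 fold change 2.17 ± 0.18 (SE), adjusted p = 8.14e-07). Of 8 axon and presynaptic markers tested 3 were higher and 2 lower, or 62.5% called against 44% of all genes. With library totals 3 of these markers were higher and 1 lower, and the median went from -0.11 to 0.15. Their summed level was 5.86 to 7.07 CPM in the innervated and 5.28 to 8.76 CPM in the denervated muscles. Muscle fibre markers had 7 lower and none higher of 12 (4 with library totals).

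Genes of antigen presentation and the interferon response changed little. Of 30 tested 1 was higher and 2 lower, or 10% against 44% of all genes, and with 1 library left out up to 5 were lower. With library totals 3 were higher and none lower, with a median of 0.16 against -0.08. B2m, of class I antigen presentation, was uncalled (log2 fold change -0.01). The 1 that rose was the chemokine Cxcl10, at 0.0268, 0.0183 and 0.157 CPM in the innervated muscles and 7.36, 4.2 and 3.38 CPM in the denervated muscles (log2 fold change 6.17 ± 0.75 (SE), adjusted p = 2.41e-05). Of 27 complement and acute phase genes 9 were higher and 3 lower, which at 44.4% is near the background, with 15 higher by library totals. Stat3, the mediator of interleukin 6 signals, rose from 73.3 to 130 CPM, and Osmr, the receptor of oncostatin M, from 21.4 to 36.6 CPM, while the pentraxin Ptx3 fell from 7.46 to 1.77 CPM.

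Gene families and gene types differed in how often they changed. Among 14548 protein-coding genes 47.7% were called, among 242 lincRNAs 28.5%, among 402 antisense RNAs 26.4% and among 73 miRNA genes 12.3%. The non-coding classes had median levels under 1 CPM, where 20% of all genes were called. Of 32 Hox genes tested 1 was higher and 14 lower, or 46.9% called against 44% of all genes. Of 68 receptors named Gpr or Adr 5 were higher and 17 lower (32.4%). Of 350 zinc-finger genes named Zfp 67 were higher and 84 lower, which at 43.1% is near the background. Of 22 chemokine ligands 8 were higher and 4 lower (54.5%).

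For some genes of high CPM any change was held within narrow bounds. The 5 genes above 100 CPM with the interval closest around 0 were Ankrd17, Ap2a2, Rps2, Gfm1 and Ddx17. Ankrd17, an ankyrin repeat protein, was at 123, 122 and 127 CPM in the innervated muscles and 120, 127 and 124 CPM in the denervated muscles (adjusted p = 0.977). Gfm1, a mitochondrial elongation factor, was at 129, 113 and 124 CPM in the innervated muscles and 126, 122 and 120 CPM in the denervated muscles (adjusted p = 0.972). With library totals the estimates of Ankrd17, Rps2 and Ddx17 were 0.24, 0.24 and 0.21, so the bounds apply on the TMM scale.

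The authors' deposited table gives its own test of this contrast. In the authors' deposited table, an adjusted p under 0.05 was given for 7566 genes, with 3911 higher and 3655 lower in denervated muscle once the sign was set to the same direction. Of these, 7362 were also called here, and all 7362 had the same direction in both.

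No source used here gives the strand setting of the counting, so reads of a gene and of a partner on the other strand that overlaps its exons cannot be told apart. In the GENCODE M21 annotation such a partner was present for Ache, Aimp2, Aldoa, Ampd3, Ap2a2, Asb5, Atp1b1, Atp2a1, Atp2a2, Bhlhe41, Cacna1s, Cdkn1a, Ckm, Clcn1, Col15a1, Col4a1, Csf1r, Ctsl, Cxcl10, Ddit3, Ddx17, Dll1, Dtna, Dusp5, Eif6, Esrra, Fbxo32, Foxo1, Ftl1, G6pdx, Gabarapl1, Gclm, Gfm1, Glul, Gmpr, Gnl3, Hadha, Heatr1, Hspa1a, Hspb2, Hspb6, Impdh2, Irs1, Irs2, Jun, Junb, Kcnn2, Keap1, Kif5b, Klhl38, Lamp1, Mkl1, Mrpl12, Mrps18b, Mt2, Myh1, Myh2, Myh7, Ndufa2, Neb, Nhp2, Pdgfra, Pfkfb1, Plekhh1, Ppp1r15a, Prx, Psma5, Rapsn, Rora, Rpl5, Rps18, Rps2, Ryr1, Sirt3, Slc2a1, Slc43a2, Slc6a9, Slc7a2, Sqstm1, Srebf1, Stat3, Supt5h, Tpi1, Ttn and Tuba8, and the values of these genes are uncertain to that extent. A second annotated gene or transcript of at least 98% identity over at least 50% of the length was found for Cpt1b, Eef1a1, Ftl1, Hsp90aa1, Hspa1a, Hspa1b, Hspb1, Impdh2, Klhl38, Mrps18b, Psma5 and Rps2, whose reads may have been divided between the copies.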

How the data were processed

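Per the submitters' processing notes, the authors used bcl2fastq 2.17.1.14, TopHat2 2.0.14, Bowtie and HTSeq 0.6.1 with the mm9 genome, and per the labels the libraries came from a stranded, ribosomal-depleted total RNA kit. No source used here gives the annotation, strand setting or filters. Values analysed were the raw read counts per gene deposited by the authors. The normalized signal that the authors divided by gene length, per the file headers, was used only for the length check, and the log2 fold changes and p-values of the authors' table only where named.

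Counts of all 12 libraries were fitted with edgeR 4.0.16 (R 4.3.3; limma 3.58.1), with TMM scaling, genes kept by filterByExpr and 4 group means, and the contrast was taken within WT. Tests were 2-sided, with 8 residual degrees of freedom. DESeq2 1.42.0 and other settings are compared in the closing section. Precision is set by depth, and the p-values rest on the spread within all 4 groups of 3 samples, dKO included, not on the WT samples alone. CPM do not correct for length, so the classes by CPM order genes by length as well as by transcripts. Overlaps came from GENCODE M21 (28376 of 31057 genes matched), near-identical copies from BLAST 2.17.0, and promoters from RefSeq, whose build differs from mm9. Gene symbols turned into dates in the table (15) were replaced by the GENCODE M21 symbol, or by the gene identifier where M21 had no entry.

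Replicate numbers paired the libraries: over 12706 genes the deviations of same-numbered WT libraries correlated at 0.2707 to 0.4586, and of dKO libraries at 0.1968 to 0.5083, against -0.3895 to 0.08841 for different numbers. The pairing comes from the data, since no label ties legs to animals, so the fit without it is the one reported.

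Members, gene lists and tests were chosen with earlier results of these data known. Named genes are the 10 largest rises and decreases at a mean of at least 10 CPM with groups that do not overlap, the 10 largest gains and losses in CPM, up to 4 called members of each list with the largest change, the 5 genes of at least 100 CPM with the interval closest around 0, and reference genes. The largest rises, decreases, gains and losses leave out predicted genes, small RNAs and genes with a near-identical copy. Other list members named were chosen after their values were seen. Some genes the rule names are not reported here.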

Additional observations from a re-analysis of the deposited data

How the results depend on the processing

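The counts of 3968 higher and 3608 lower genes stayed within 1.5 times under DESeq2, median-of-ratios size factors, no filter, the 6 WT libraries alone, and the replicate block with and without a GC correction. Scaling by library totals gave 6190 higher and 1898 lower, with 1610 and 677 of them 2-fold or more, since it moves the median of all genes by 0.24. glmTreat, a stricter test by construction, gave 411 and 387. With the replicate block, which rests on the pairing of replicate numbers, 4380 genes were higher and 4118 lower. Among the genes of the naming rule it changed only 2 calls: Ccr2 was no longer called, and H2afz was, as it also was by DESeq2 and without a filter. Beside the lists already given, it raised the number higher to 6 for integrins, 3 for filaments and Z-disc, 2 for glycolysis, and 1 each for the citrate cycle and fat oxidation, and the number lower to 4 for immediate early and for antigen presentation genes and 3 for red cell markers. Leaving out 1 WT library gave 3411 to 3838 higher and 3048 to 3244 lower genes, with 938 to 1050 and 977 to 1078 of 2-fold or more. Under library totals 38.8% of the genes at 1000 CPM or more were called, and without a filter 5.22% of those under 1 CPM. Without a filter 2 genes, Cxcl10 and SNORA53, passed the threshold for a different response in dKO muscle. Under library totals the estimates of Ankrd17 (0.24), Rps2 (0.24) and Ddx17 (0.21) turned positive and were called. In only the 250 bases before the start, the E-box was in 12.4% of all promoters and in 13.9% and 14.5% of those of genes 2-fold higher and lower, and the AP-1, MEF2 and FOXO motifs were in 4.76%, 2.81% and 2.22% of all, fewer because the window is shorter. With only A or T in the centre of the MEF2 motif, an alternative chosen after seeing the data, the shares were 0.516% of all, 0.889% and 2.65%, fewer because the motif is stricter. Of 247 called genes that the naming rule gives, 225 were called with 1 direction under every alternative run. Most of these genes were picked for large changes in the same data, so that count does not describe all 7576 calls.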

Other observations

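Genes of lipid synthesis moved in both directions. Of 21 genes of cholesterol synthesis and its control 6 were higher and 4 lower, which at 47.6% is near the 44% of all genes called, with 11 higher by library totals. Hsd17b7, an enzyme of the late pathway, rose from 6.73 to 23.9 CPM, while Dhcr7, which makes the last step to cholesterol, fell from 6.16 to 1.97 CPM. Of 24 genes of fatty acid and triglyceride synthesis 2 were higher and 6 lower (33.3% called), with 6 and 5 by library totals (median 0.17 against -0.08). Srebf1, the factor that drives fatty acid synthesis, fell from 107 to 41 CPM, and Plin5, a coat protein of lipid droplets beside mitochondria, from 20.7 to 7.67 CPM, while Plin2, the droplet coat of most tissues, rose from 30 to 53.3 CPM. Of 25 genes of amino acid breakdown 4 were higher and 7 lower (44%), and 7 and 5 by library totals (median 0.17 against -0.06). Glul, glutamine synthetase, rose from 131 to 233 CPM, and Got1, a transaminase of the cytosol, fell from 487 to 241 CPM.

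Among families matched by name, the TNF receptor superfamily had 8 higher and 3 lower of 20 tested, or 55% called against 44% of all genes. Its summed level went from 136 to 163 CPM in innervated muscle to 531 to 730 CPM in denervated muscle. Interleukins and their receptors had 14 higher and 6 lower of 49 (40.8% called), and Sox genes 5 higher and 3 lower of 14 (57.1%). Trim genes had 7 higher and 6 lower of 50, or 26% against 44% of all genes.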
